A study of Homo sapiens with 6 samples.

Results

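The genes described here are the core of the integrated stress response (ISR): the transcription factors ATF4, ATF5, DDIT3 (CHOP), ATF3, CEBPB and CEBPG, and the effectors TRIB3, CHAC1, PPP1R15A (GADD34) and NUPR1. They are 10 of the 60656 genes in the count table and were picked by symbol for their place in this pathway, each matching 1 Ensembl identifier. The choice was made with results for the same comparison already known, so the difference of each of the 10 between treatments is given as a description, with its error and without a P value. RNA came from parental ZR-75-1 cells, an established oestrogen receptor-positive human breast cancer line, in which RB1 had not been knocked out, grown in RPMI-1640 with serum. The CDK4/6 inhibitor abemaciclib was given at 500 nM for 4 days in 3 libraries, and an equal volume of its solvent DMSO in another 3. The study describes such libraries as independent biological replicates. The data cover 1 line, 1 dose and 1 time, and RB1-knockout cells were not analysed here.

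In the ISR, kinases that sense amino acid shortage, unfolded protein in the endoplasmic reticulum, double-stranded RNA or haem shortage and mitochondrial stress phosphorylate the initiation factor eIF2α. General translation then slows, while ATF4 mRNA, which carries upstream open reading frames, is translated more. ATF4 pairs with other bZIP proteins, C/EBP factors among them, and switches on genes for amino acid uptake and synthesis, tRNA charging and redox defence. It also induces DDIT3 and TRIB3, linked to cell death when stress lasts, and PPP1R15A, which returns eIF2α to its unphosphorylated state. Only mRNA was measured here, so phosphorylation and translation are outside these data.

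With abemaciclib, 8 of the 10 genes were lower, ATF5 was higher and PPP1R15A did not pass the threshold (adjusted P under 0.05, edgeR quasi-likelihood test fitted to the whole table). All 10 had enough counts to be tested. Among the 10863 genes tested, 13.3% were called lower and 12.5% higher, and because the members were chosen with this contrast in view nothing is read from the excess. The same 8 genes lay below every DMSO library in all 3 abemaciclib libraries, as did 20.1% of all genes tested, and ATF5 lay above every DMSO library, as did 19.1%. The median log2 fold change was −1.26 over the 10 genes and 0.00 over all genes tested. Summed over the 10 genes, the level was between 418 and 479 CPM (counts scaled to library size with TMM factors) with DMSO and between 227 and 283 CPM with abemaciclib.

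**Figure D1:**
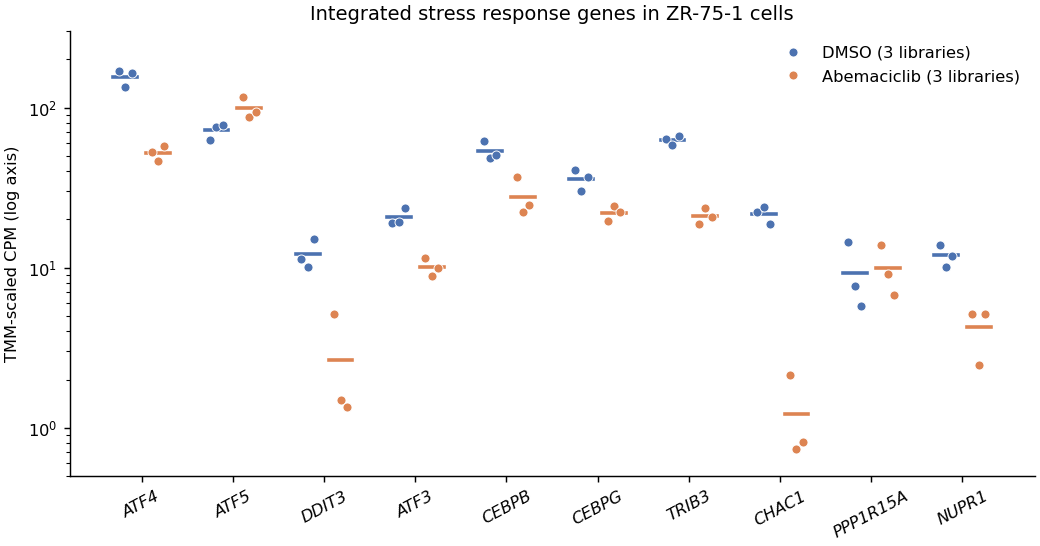
TMM-scaled CPM of the 10 genes on a log axis, 1 point per library, with the mean of 3 libraries as a bar; blue is DMSO and orange is abemaciclib. The groups separate downwards for 8 genes, upwards for ATF5, and overlap for PPP1R15A.

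Promoter sequence is shown for the genes in which it held a binding motif of this pathway. RefSeq promoters (GRCh38.p14, 250 bases before to 50 after a transcription start) were matched for 9 of the 10 genes, all but NUPR1. They were searched on both strands for TGATGNAA, the C/EBP-ATF response element (CARE) through which ATF4 and its C/EBP partners act, and for TGACGTCA, the cyclic AMP response element of the ATF/CREB factors. The CARE letters were found in CHAC1, ATF3 and CEBPG, 33.3% of the 9, against 4.46% of the 27305 genes with a promoter and 2.36% of those tested here. The cyclic AMP element was found in PPP1R15A, 11.1% of the 9, against 2.25% of all genes with a promoter and 4.11% of those tested. Windows are given 5′ to 3′ on the strand of the gene, with the motif in capitals, and a CARE on the opposite strand reads as its reverse complement, TTNCATCA. Those of CHAC1 (chr15:40953254-40953277), ATF3 (chr1:212565208-212565231), CEBPG (chr19:33374063-33374086) and PPP1R15A (chr19:48872355-48872378) all lie on the plus strand.
CHAC1: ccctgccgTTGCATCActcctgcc
ATF3: ggtcaggaTGATGGAAggctgtca
CEBPG: gcggcgtcTGATGCAAcctgccgg
PPP1R15A: tctcttcgTGACGTCAgcacgccg
The motif began 209 bases before the RefSeq start in CHAC1, 191 in ATF3, 58 in PPP1R15A and 42 before the downstream one of the RefSeq starts of CEBPG. Each of these starts lies downstream of the 5′ bound of the gene as given below, and the windows of CHAC1, CEBPG and PPP1R15A fall inside those bounds. The 3 members with the CARE letters were all among the 8 that were lower, as were 4 of the 6 without them. A looser E2F-like pattern, TTTNNCGC, was found in ATF4 alone of the 9 genes (11.1%), against 8.23% of all genes with a promoter and 13.6% of those tested. The core genes were picked for their place in this pathway, so nothing is read from their share with the CARE letters. Such matches describe letters and not binding, and other stretches of these genes were not searched.

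ATF4, the factor at the centre of the pathway, lies on chromosome 22 of GRCh38 from 39519695 to 39522683 on the plus strand. It measured 169, 135 and 165 CPM in DMSO replicates 1, 2 and 3, and 52.9, 46.6 and 57.6 CPM in the abemaciclib replicates. The lowest DMSO library was more than double the highest abemaciclib library. The mean fell from 156 ± 19.0 to 52.4 ± 5.48 CPM (SD, n = 3 per group), that is to 33.5% of the DMSO mean. The log2 fold change of −1.58 (standard error 0.13) stayed between −1.68 and −1.50 under every alternative run, leaving out each library included. The 4 ATF4 pseudogenes in the table together held at most 3 counts in any library.

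DDIT3 encodes CHOP, a C/EBP-family factor that ATF4 induces, and lies on chromosome 12 from 57516588 to 57521737 on the minus strand. It had 11.3, 10.1 and 15.1 CPM with DMSO and 5.14, 1.48 and 1.35 CPM with abemaciclib. Abemaciclib replicate 1 was more than 3 times either of the other two, but still below every DMSO library. The means were 12.2 ± 2.63 CPM and 2.66 ± 2.15 CPM (SD, n = 3 per group), with a log2 fold change of −2.22 (standard error 0.45). It was −3.07 without abemaciclib replicate 1 and −1.92 without abemaciclib replicate 2. These are small numbers: the abemaciclib libraries held 17, 6 and 5 counts. The 3′ end of DDIT3 overlaps that of MARS1 on the opposite strand, and whether the counting used strand is not given in the sources used here, so the counts of both genes are uncertain.

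ATF3, a stress-induced bZIP factor that acts largely as a repressor, lies on chromosome 1 from 212565334 to 212620777. It had 18.9, 19.3 and 23.6 CPM with DMSO and 11.5, 8.88 and 10.0 CPM with abemaciclib. The groups did not overlap, and the mean was 49.2% of that with DMSO. The log2 fold change was −1.03 (standard error 0.25), and it was between −1.12 and −0.92 under the alternatives.

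CEBPB and CEBPG are C/EBP factors that form heterodimers with ATF4; CEBPG lacks an activation domain of its own. CEBPB, a single-exon gene on chromosome 20 from 50190830 to 50192668, had 61.5, 48.7 and 50.3 CPM with DMSO and 36.6, 22.2 and 24.6 CPM with abemaciclib. CEBPG, on chromosome 19 from 33373685 to 33382686, had 40.6, 30.0 and 37.0 CPM with DMSO and 19.7, 24.4 and 22.2 CPM with abemaciclib. Both genes separated the groups, CEBPB by a log2 fold change of −0.95 (standard error 0.19) and CEBPG by −0.69 (standard error 0.19). The replicates differed in order: abemaciclib replicate 1 was the highest of its group for CEBPB and the lowest for CEBPG. The call of CEBPG was lost without DMSO replicate 1, where its log2 fold change was −0.60.

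ATF5, the closest relative of ATF4, is also translated under eIF2α phosphorylation and is known for its part in the mitochondrial unfolded protein response. It lies on chromosome 19 from 49928702 to 49933935. It had 62.6, 75.5 and 78.4 CPM with DMSO and 117, 87.8 and 94.3 CPM with abemaciclib, so the pair of related factors moved in opposite directions. The mean was 72.2 ± 8.39 CPM with DMSO and 99.8 ± 15.5 CPM with abemaciclib (SD, n = 3 per group), with a log2 fold change of 0.47 (standard error 0.14). Its call was lost without DMSO replicate 1 (0.37) and without abemaciclib replicate 1 (0.34). These 3′ libraries give about 1 read per transcript and do not favour long ones. Other differences in counting between genes were not measured, so levels of different genes are set beside each other with that limit. In each DMSO library ATF4 had more counts than ATF5, and in each abemaciclib library fewer: the log2 level of ATF5 minus that of ATF4 was −1.11 ± 0.30 with DMSO and 0.92 ± 0.22 with abemaciclib (SD, n = 3 per group).

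TRIB3, a pseudokinase induced by ATF4 and CHOP that feeds back on both, lies on chromosome 20 from 362835 to 397559. It had 63.8, 58.2 and 66.6 CPM with DMSO and 18.8, 23.7 and 20.8 CPM with abemaciclib. Within each group its libraries were close, with SDs of 4.28 and 2.48 CPM. The mean was 33.5% of that with DMSO, as for ATF4, with a log2 fold change of −1.57 (standard error 0.17). The log2 level of TRIB3 minus that of ATF4 was −1.30 ± 0.10 with DMSO and −1.29 ± 0.29 with abemaciclib (SD, n = 3 per group), so the ratio of the 2 transcripts moved by less than its spread between libraries.

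CHAC1, an enzyme that breaks down glutathione and is induced through ATF4, showed the lowest log2 fold change of the 10. It lies on chromosome 15 from 40952962 to 40956512. It had 22.3, 24.1 and 18.8 CPM with DMSO and 2.12, 0.74 and 0.811 CPM with abemaciclib. In counts these were 77, 81 and 62 against 7, 3 and 3, and a count of 0 would itself have allowed up to 3 counts (0.74 to 0.909 CPM, depending on the library, covering counting error only). The mean was 5.63% of that with DMSO, and the log2 fold change was −4.16 (standard error 0.40). It was −4.75 without abemaciclib replicate 1 and −3.89 without abemaciclib replicate 2. Set against ATF4 in the same library, CHAC1 was lower still: the log2 level of CHAC1 minus that of ATF4 was −2.82 ± 0.33 with DMSO and −4.96 ± 0.57 with abemaciclib (SD, n = 3 per group).

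NUPR1, a small stress-induced chromatin protein, lies on chromosome 16 from 28532708 to 28539008 on the minus strand. It had 13.9, 10.1 and 11.8 CPM with DMSO and 5.14, 2.47 and 5.13 CPM with abemaciclib, without overlap. The log2 fold change was −1.50 (standard error 0.38), with 17, 10 and 19 counts behind the abemaciclib values.

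PPP1R15A encodes GADD34, the inducible subunit that directs protein phosphatase 1 to eIF2α, and lies on chromosome 19 from 48872212 to 48876059. It had 14.5, 7.72 and 5.75 CPM with DMSO and 13.9, 9.13 and 6.76 CPM with abemaciclib. The groups overlapped throughout, and each spread more than 2-fold. The log2 fold change was 0.08 with a 95% interval from −0.67 to 0.82, so no difference was detected and values between these bounds remain compatible with these libraries. The log2 fold change was between −0.23 and 0.54 with each library left out. PPP1R15A is also the 1 member whose promoter held the cyclic AMP element shown above, and a link with its values was not tested.

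**Figure D2:**
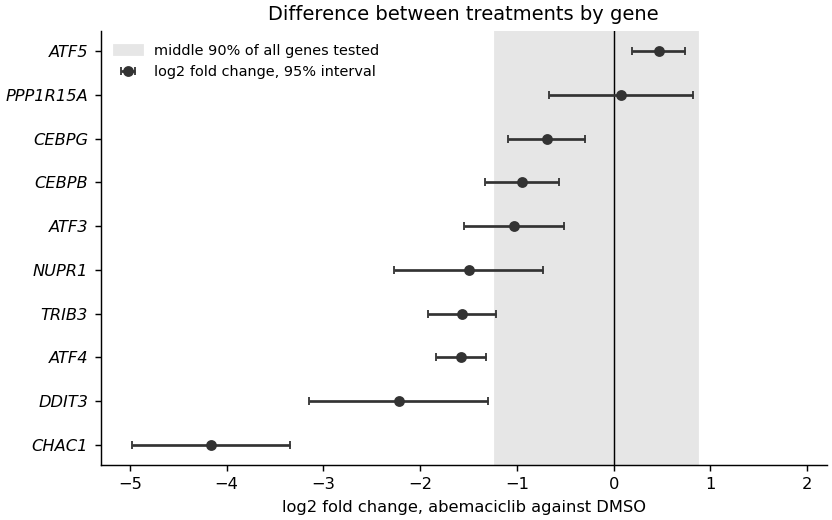
Log2 fold change of each gene (abemaciclib against DMSO) with its 95% interval; the grey band holds the middle 90% of all genes tested, from −1.23 to 0.87. CHAC1, DDIT3, ATF4, TRIB3 and NUPR1 lie below the band, and the other 5 within it.

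Within the groups, several of the 10 genes deviated in the same library. On the log2 CPM scale, abemaciclib replicate 1 was above its group mean for 8 of the 10, with a median deviation of 0.27, while 49.9% of all genes tested were above their group mean in that library and their median deviation was 0.00. DDIT3 (1.02 above), CHAC1 (0.67) and PPP1R15A (0.52) deviated most in it. The other 2 genes, TRIB3 and CEBPG, lay below the mean in it (−0.16 each), and ATF4 was 0.02 above. Abemaciclib replicate 2 and DMSO replicate 2 were each above their group mean for 2 of the 10, with median deviations of −0.17 and −0.14, while 51.2% and 50.4% of all genes tested were above it. Mitochondrial transcripts made up 16.6% of counts in abemaciclib replicate 1 and 15.6% to 18.3% in the other libraries. The source of the shared deviation was not tested.

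**Figure D3:**
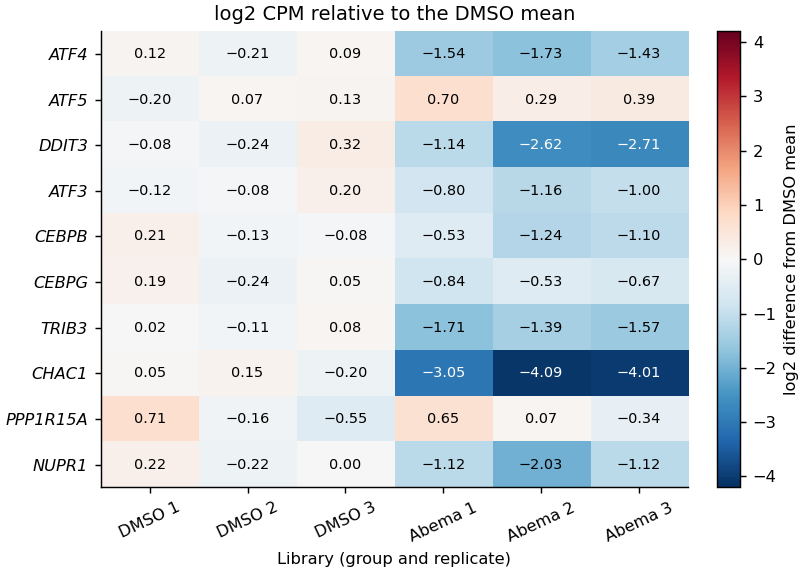
Log2 CPM of the 10 genes in each library as the difference from the DMSO mean (prior count of 2); rows are genes, columns are libraries, blue is lower and red is higher. The abemaciclib columns are below 0 for 8 genes, with values from −0.53 to −4.09, and above 0 for ATF5.

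Upstream of ATF4, the counts of genes called were too small to set apart from those of all genes. Of 18 genes for the eIF2α kinases, eIF2, eIF2B and their regulators, all tested, 1 was lower (5.56%) and 2 were higher (11.1%), against 13.3% and 12.5% of all genes tested. The median log2 fold change was 0.04. None of the 4 kinases passed the threshold: the log2 fold change was −0.14 for EIF2AK1 (HRI), 0.15 for EIF2AK2 (PKR), 0.31 for EIF2AK3 (PERK) and 0.25 for EIF2AK4 (GCN2), with adjusted P between 0.127 and 0.559 from edgeR. Counts of EIF2AK2 are uncertain, as its 3′ end overlaps GPATCH11 on the opposite strand. DNAJC3, which encodes an endoplasmic reticulum co-chaperone also known as an inhibitor of PKR and PERK, rose from 46.0 ± 7.99 to 72.9 ± 0.884 CPM (SD, n = 3 per group, log2 fold change 0.66, edgeR adjusted P = 0.00112). The subunits of eIF2 split. EIF2S3 (eIF2γ) rose by 0.42 on the log2 scale (edgeR adjusted P = 0.00495), EIF2S2 (eIF2β) fell by 0.33 (edgeR adjusted P = 0.0149), and EIF2S1 (eIF2α) had a log2 fold change of −0.12. The call of EIF2S2 was lost without DMSO replicate 3 and without abemaciclib replicate 2, and its 7 annotated pseudogenes held 22 to 58 counts per library.

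Downstream, 38 target genes of ATF4 for amino acid supply, tRNA charging and stress secretion were listed, and 33 had enough counts. With abemaciclib 19 were lower (57.6%, against 13.3% of all genes tested) and 2 were higher (6.06%, against 12.5%). The median log2 fold change was −0.55. Like the other gene lists here, this one was chosen with earlier results of these data known. Nothing is therefore read from the excess, and the P values of its named genes are descriptive. SLC7A11, the cystine transporter subunit that feeds glutathione synthesis, fell from 21.4 ± 5.80 to 1.68 ± 1.04 CPM (SD, n = 3 per group, log2 fold change −3.68, edgeR adjusted P = 4.63e-08). GDF15, a secreted stress cytokine, fell from 87.7 ± 4.61 to 15.1 ± 4.18 CPM (SD, n = 3 per group, log2 fold change −2.53, edgeR adjusted P = 6.26e-12). SLC7A5, the large neutral amino acid transporter, fell from 74.0 ± 4.55 to 14.0 ± 0.957 CPM (SD, n = 3 per group, log2 fold change −2.40, edgeR adjusted P = 7.06e-12). These 3 had the largest falls of the list. The 2 called higher were ALDH18A1, an enzyme of proline synthesis, and STC2, a secreted glycoprotein. They rose by 0.83 (edgeR adjusted P = 0.000176) and 0.67 (edgeR adjusted P = 0.00289) on the log2 scale. The other 12 tested did not pass the threshold, and of these SLC6A9 (0.29), DDIT4 (0.20), NARS1 (0.08) and PYCR1 (0.02) had log2 fold changes above 0. ASNS, ALDH1L2, CTH, VLDLR and FGF21 had too few counts to be tested.

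The CARE letters were found in 13 of the 29 target genes with a promoter. This was 44.8%, against 4.46% of all genes with a promoter and 2.36% of those tested. The list was drawn from targets of ATF4, which acts through this element, so nothing is read from that share. The windows of 5 that were lower, AARS1 (chr16:70289678-70289701, minus strand), TARS1 (chr5:33440959-33440982, plus strand), IARS1 (chr9:92293695-92293718, minus strand), CARS1 (chr11:3057410-3057433, minus strand) and MARS1 (chr12:57488056-57488079, plus strand), and of NARS1 (chr18:57621807-57621830, minus strand), which was not called, are shown beside those of the core genes because all 6 encode tRNA synthetases and carry the same 8 letters on one strand or the other.
AARS1: tctcgcagTTGCATCAgccaagtt
TARS1: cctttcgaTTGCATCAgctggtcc
IARS1: tcagcgcgTTGCATCAcctccgtg
CARS1: ggcggcggTTGCATCAgattctag
MARS1: ggttccggTTGCATCAgcgaggga
NARS1: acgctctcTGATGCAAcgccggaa
Of the 13 genes with the letters, 9 were lower, 0 were higher, 2 were not called and 2 were not tested. Of the 16 without them, 7 were lower, 2 were higher, 5 were not called and 2 were not tested. The log2 fold change was −0.59 for AARS1, −0.47 for TARS1, −0.60 for IARS1, −0.89 for CARS1, −0.94 for MARS1, whose counts are uncertain as said above, and 0.08 for NARS1. These 6 were named after their values were seen. The E2F-like pattern was found in 6 of the 29 target genes (20.7%, against 13.6% of tested genes), AARS1, TARS1 and IARS1 among them. All 6 were lower and all also held the CARE letters. Of the 23 without the pattern, 10 were lower, 2 were higher, 7 were not called and 4 were not tested.

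Of 7 genes of cell death and endoplasmic reticulum oxidation linked to CHOP, all tested, 1 was lower (14.3%, against 13.3% of all genes tested) and 0 were higher by edgeR (against 12.5%; 0 higher at an unadjusted P under 0.05, and 0 by DESeq2). BBC3, which encodes the pro-apoptotic protein PUMA and is also a p53 target, fell from 66.1 ± 3.92 to 14.8 ± 4.25 CPM (SD, n = 3 per group, log2 fold change −2.15, edgeR adjusted P = 5.46e-10). Over the 7 genes the median was −0.48 on the log2 scale, and it was between −0.58 and −0.25 with each library left out in turn.

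Paralogues of the core genes were set beside them. TRIB1 (log2 fold change 0.23) and TRIB2 (0.06), the other two Tribbles pseudokinases, did not pass the threshold, with edgeR adjusted P of 0.581 and 0.903. PPP1R15B, the constitutive counterpart of GADD34, was at 90.7 ± 2.38 CPM with DMSO and 89.5 ± 8.07 CPM with abemaciclib (SD, n = 3 per group, log2 fold change −0.02), and in every library it was above PPP1R15A. JDP2, a repressor closely related to ATF3, fell from 25.6 ± 6.30 to 8.32 ± 4.11 CPM (SD, n = 3 per group, log2 fold change −1.64, edgeR adjusted P = 0.000133). Of the C/EBP factors, CEBPD fell by 0.52 (edgeR adjusted P = 0.0370) and CEBPA was not called (log2 fold change 0.22, edgeR adjusted P = 0.355). The call of CEBPD was lost under DESeq2, with no filter on low counts and with any 1 library left out. CHAC2 and NUPR2 had too few counts to be tested. Over the 16 paralogues and bZIP relatives listed, 11 were tested. Of these 3 were lower, JDP2, CREB1 and CEBPD (27.3%, against 13.3% of all genes tested), and 1 was higher (9.09%, against 12.5%). The latter was BATF, a weakly expressed gene named after its value was seen (2.36 ± 0.838 CPM and 6.34 ± 0.848 CPM, SD, n = 3 per group). Its call was lost under DESeq2 and without replicate 2 or 3 of DMSO or replicate 1 or 2 of abemaciclib. CREB1, a factor that binds the cyclic AMP element, fell by 0.64 on the log2 scale (edgeR adjusted P = 0.00263).

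The other arms of the unfolded protein response, IRE1–XBP1 and ATF6, raise the folding capacity of the endoplasmic reticulum. Of 20 genes of these arms, all were tested and 12 were higher (60.0%, against 12.5% of all genes tested) and 0 lower by edgeR (0 lower at an unadjusted P under 0.05, and 0 by DESeq2). The other 8 did not pass the threshold, and of these HERPUD1 (−0.06), MBTPS1 (−0.04) and MBTPS2 (−0.05) had log2 fold changes below 0. The median log2 fold change was 0.38. This list too was chosen with earlier results of these data known, so nothing is read from the excess and the P values are descriptive. SEL1L, an adaptor of endoplasmic reticulum-associated degradation, rose from 57.6 ± 2.79 to 102 ± 13.4 CPM (SD, n = 3 per group, log2 fold change 0.82, edgeR adjusted P = 2.3e-05). CRELD2, a secreted stress-induced chaperone, rose by 0.77 (edgeR adjusted P = 7.8e-05). ATF6, the membrane-bound factor that names its arm, rose by 0.56 (edgeR adjusted P = 0.000637). With each library left out in turn, 9 to 12 of the 20 were higher. The core genes and these arms were not compared by a test of the difference between them.

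The endoplasmic reticulum stress element, CCAAT and CCACG with 9 bases of any kind between them, was searched for in the same promoters because ATF6 and XBP1 act through it. It was found in 6 of the 20 genes of these arms, CALR, CRELD2, HSP90B1, HSPA5, PDIA6 and XBP1, and in 0 of the 9 core genes and 0 of the 29 ATF4 target genes, against 0.0916% of all genes with a promoter and 0.163% of those tested. All 6 were called higher, as were 6 of the 14 without it, though the 3′ ends of CALR, HSP90B1 and PDIA6 overlap genes on the opposite strand and their counts are uncertain. The window of HSPA5 (chr9:125241386-125241414, minus strand), which encodes the chaperone BiP, is shown in contrast to those of CHAC1 and CEBPG.
HSPA5: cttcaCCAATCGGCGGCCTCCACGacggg
The CARE letters were found in 1 of these 20 genes, HERPUD1, which was not called (log2 fold change −0.06). The 20 genes were listed for arms whose factors act through the endoplasmic reticulum stress element, so nothing is read from the share with it.

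**Figure D4:**
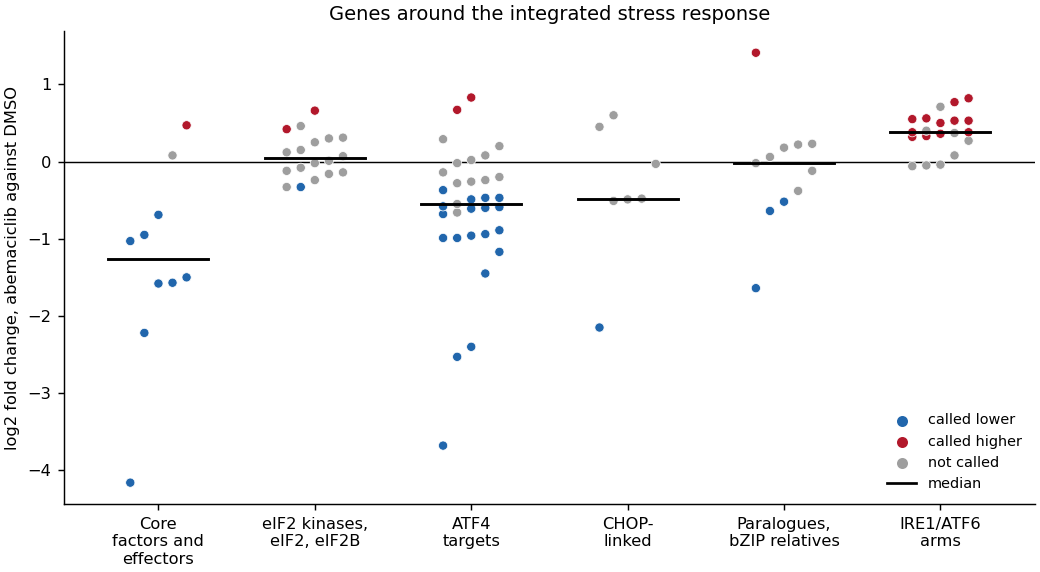
Log2 fold change (abemaciclib against DMSO) of the tested genes of 6 lists, 1 point per gene, coloured by call; the black bar is the median. Medians are −1.26 for the core genes, 0.04 upstream, −0.55 for ATF4 targets, −0.48 for CHOP-linked genes, −0.02 for relatives and 0.38 for the IRE1 and ATF6 arms.

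The genes whose values over the 6 libraries were nearest to those of ATF4, by the root mean square difference of log2 CPM after centring on the DMSO mean, were HELLS, DEK and CENPH (0.13 each), CAST (0.14) and ACVR2B (0.15), among 9729 genes with a mean of at least 5 CPM. Their log2 fold changes were between −1.66 and −1.43. Nearest to DDIT3 were FAM83D (0.17), MT-TC (0.26), RDM1 (0.31), NRP1 (0.32) and PCNA (0.34), with log2 fold changes between −2.27 and −1.82. Without abemaciclib replicate 1 these 5 were between −2.98 and −2.36. The measure includes the difference between treatments. Fold changes near those of ATF4 and DDIT3 therefore follow from the selection, and nothing is read from them. Counts of the mitochondrial tRNA gene MT-TC are uncertain, since it lies beside other mitochondrial transcripts.

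The libraries held between 3317860 and 4013156 counts. The share of the 20 most abundant genes was 18.9% to 21.4%, highest in abemaciclib replicate 3. MKI67, a marker of cycling cells, fell from 526 ± 31.4 to 5.00 ± 2.28 CPM (SD, n = 3 per group), and RB1 was at 56.2 ± 7.32 CPM and 33.9 ± 2.24 CPM. In bulk libraries fewer cells in a given state and less RNA per cell cannot be told apart, so the part of the shift in cycling cells in the values above was not tested. All 7 luminal markers were detected, with a summed level of 6661 to 7275 CPM with DMSO and 7563 to 8640 CPM with abemaciclib. They did not move together: ESR1 (log2 fold change 0.83) and KRT19 (0.45) were called higher, KRT18 (−0.34) lower, and the other 4 were not called. KRT19 was the most abundant of them, with a mean of 3131 CPM with DMSO and 4280 CPM with abemaciclib. The 67 annotated pseudogenes of KRT18 held 118 to 157 counts per library, against 1685 to 2508 for KRT18 itself. Of 12 markers of basal, stromal, endothelial and immune cells, 9 were at 0 counts in all 6 libraries, and COL1A1 alone had enough counts for a test (13.1 ± 2.68 CPM and 12.5 ± 2.67 CPM, SD, n = 3 per group).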

How the data were processed

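RNA from 6 samples was sequenced as single-end 3′ mRNA libraries. After trimming with BBDuk, the authors aligned the reads by STAR 2.7.5b to hg38 and summed them over GENCODE genes by featureCounts 2.0.1. The deposited values are raw counts that were not normalized. The strand setting of the counting and the kit's strand orientation were not resolved, since the labels and the study's methods name different versions of the kit. Groups and replicate numbers came from the sample titles. Symbols were matched by Ensembl identifier for 60401 genes (255 had none). Positions of genes on GRCh38 follow a GENCODE release newer than that of the counts, and overlaps were looked for in the last 500 bases of each gene.

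Abemaciclib was compared with DMSO by the edgeR 4.0.16 quasi-likelihood test under R 4.3.3, after filterByExpr and TMM and without covariates, and P values were adjusted by Benjamini–Hochberg over the 10863 tested genes. Standard errors are the log2 fold change divided by the square root of F. The biological coefficient of variation was 13.2%. The script was tested on simulated data. P values set the difference between the groups against the spread between these libraries. Members and gene lists were chosen with earlier results of these data known. The named genes are the 10 members, their paralogues, the eIF2α kinases, up to 3 called genes per list and direction with a mean of at least 5 CPM, the 5 genes nearest to ATF4 and to DDIT3, and MKI67 and RB1 as checks; others are said to have been named after their values were seen. Replicates of a group differed by more than sampling noise (chi-square per degree of freedom 2.88 to 7.82). The highest values, 7.33 and 7.82, were those of abemaciclib replicate 3 against replicates 1 and 2, which differed from each other by 3.55. Alternatives were DESeq2 1.42.0, its size factors, total counts, no filter, at least 10 counts in every library, a replicate block and each library left out.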

Additional observations from a re-analysis of the deposited data

How the results depend on the processing

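Of 118 values of single core genes under an alternative, 112 changed neither sign nor call, 3 were weaker and 3 reversed. All 3 reversals were of PPP1R15A, which never passed the threshold and was between −0.23 and 0.54 with each library left out. Of 535 values over all named genes, 515 were unchanged in this sense, 14 weaker, 1 stronger and 5 reversed, the other 2 being TRIB2 without DMSO replicate 1 (−0.08 to 0.13 with each library left out) and PPP1R15B without abemaciclib replicate 3 (−0.08 to 0.04). With each library left out, 7 to 8 core genes were lower and 0 to 1 higher, with a median log2 fold change from −1.34 to −1.07. With at least 10 counts in every library DDIT3 and CHAC1 could not be tested, 6 of the other 8 were lower and the median was −1.0. CEBPA was called higher without abemaciclib replicate 3 (0.42). Of the upstream genes 0 to 1 were lower with each library left out. The call of BATF, the 1 relative called higher, was lost under DESeq2 and with the replicate block (0 higher). With at least 10 counts in every library BATF, at 8 and 5 counts in DMSO replicates 2 and 3, could not be tested. With each library left out, 0 to 1 relatives were higher. Over all genes, 1132 to 1529 were lower and 981 to 1412 higher with each library left out, and DESeq2 gave 1158 and 1058. No shared deviation was seen between libraries with the same replicate number (correlations −0.06, 0.00 and −0.11 over 9739 genes). Deviations from means of 3 libraries cannot show whether such libraries were handled together. With the replicate block 1280 genes were lower and 1139 higher, 8 core genes were lower and 1 higher, and of the named genes CEBPD lost its call (adjusted P = 0.0569). DDIT3, CHAC1, ATF3, NUPR1 and PPP1R15A had 50 counts or fewer in at least 1 library, which limits their precision.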
